A study of Mus musculus with 12 samples.

Results

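The genes described here encode the machinery of store-operated calcium entry and its NFAT output: the endoplasmic reticulum calcium sensors Stim1 and Stim2, the plasma membrane channel Orai1, the calcineurin catalytic subunits Ppp3ca and Ppp3cb, the calcineurin regulator Rcan1, the calcineurin-controlled factors Nfatc1, Nfatc2 and Nfatc3, and the tonicity-responsive relative Nfat5. Members were matched by gene symbol, and the 10 symbols each matched 1 of the 32051 Ensembl genes in the deposited table. The question asked of them was how their transcript levels stood in Th9 cells cultured with vehicle, EpA, fatostatin or both.

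Naive CD4+ T cells from spleens of C57BL/6J mice aged 6 to 8 weeks were activated with anti-CD3 and anti-CD28 and cultured with IL-4 at 10 ng/mL, TGF-β at 1 ng/mL and antibodies against IL-12 and IFN-γ, and RNA was taken on day 4. Groups were DMSO (vehicle), EpA at 10 µM (endomelipeptide A, a cyclic lipopeptide from an endophytic fungus), DMSO+fato (fatostatin at 5 µM, an inhibitor of SREBP activation) and EpA+fato (both agents at the same doses), with 3 replicates each and 12 libraries in all. All groups shared the wild-type background, the stimulation and the cytokines. The labels do not say whether replicates came from separate mice or cultures, so the p-values measure only the spread between these samples, which may be technical.

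When a T cell receptor is engaged, phospholipase C makes inositol trisphosphate, calcium leaves the endoplasmic reticulum, and STIM proteins that sense the loss open ORAI channels in the plasma membrane. The calcium that enters activates calmodulin and then calcineurin, a phosphatase that strips phosphate from NFATc proteins and lets them enter the nucleus, where they often bind DNA next to AP-1 factors and drive cytokine genes. NFAT5 shares the DNA-binding domain but lacks the calcineurin docking region and responds to osmotic stress. Control of this pathway is largely by calcium and phosphorylation, which a transcript level does not measure.

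Promoter sequences are shown for members whose levels behaved differently below, and for Rcan1 because a single gene-level value covers more than 1 start site. RefSeq windows on GRCm38.p6 were used for 8 of the 10 members. They made 11 windows, since Nfatc2, Nfatc3 and Rcan1 each have more than 1. The 250 bases before each start were searched on both strands. No window of Nfatc1 or Ppp3ca was searched, so the motif counts leave these genes out. Their absence here does not mean that RefSeq has no window for them. The NFAT core letters GGAAA occur in 55.6% of all 32851 promoter windows of this length, and the AP-1 letters TGACTCA in 4.46%. Letters matching either motif are in capitals, and each sequence is written 5′ to 3′ on the gene's strand.

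Rcan1, upstream start, chr16:92466170-92466419, minus strand: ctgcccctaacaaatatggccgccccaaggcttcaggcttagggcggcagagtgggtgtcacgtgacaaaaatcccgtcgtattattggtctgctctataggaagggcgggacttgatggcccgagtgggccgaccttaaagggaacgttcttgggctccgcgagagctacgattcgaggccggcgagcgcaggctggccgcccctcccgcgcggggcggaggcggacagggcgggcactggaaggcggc

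Rcan1, internal start, chr16:92400079-92400328, minus strand: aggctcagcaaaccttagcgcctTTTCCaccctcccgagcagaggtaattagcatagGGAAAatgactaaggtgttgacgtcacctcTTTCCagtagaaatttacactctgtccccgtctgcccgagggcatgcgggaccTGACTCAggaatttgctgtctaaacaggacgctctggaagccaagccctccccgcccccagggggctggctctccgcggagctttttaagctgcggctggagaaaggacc

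Nfat5, chr8:107293220-107293469, plus strand: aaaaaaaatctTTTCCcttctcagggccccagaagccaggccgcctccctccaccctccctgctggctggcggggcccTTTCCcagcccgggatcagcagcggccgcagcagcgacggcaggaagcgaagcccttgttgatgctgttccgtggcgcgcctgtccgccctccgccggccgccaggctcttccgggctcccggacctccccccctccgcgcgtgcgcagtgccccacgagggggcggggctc

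Stim1, chr7:102267569-102267818, plus strand: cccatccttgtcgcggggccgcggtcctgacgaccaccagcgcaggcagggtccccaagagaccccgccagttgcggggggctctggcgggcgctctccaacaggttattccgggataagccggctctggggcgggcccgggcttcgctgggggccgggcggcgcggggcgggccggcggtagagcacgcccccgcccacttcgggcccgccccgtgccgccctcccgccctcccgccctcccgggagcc

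Stim2, chr5:53998273-53998522, plus strand: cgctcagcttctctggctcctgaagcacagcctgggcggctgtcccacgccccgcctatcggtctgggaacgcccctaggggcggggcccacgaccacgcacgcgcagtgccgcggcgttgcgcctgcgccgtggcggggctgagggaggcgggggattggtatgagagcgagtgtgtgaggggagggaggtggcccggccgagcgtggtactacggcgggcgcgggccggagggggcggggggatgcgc

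The internal Rcan1 window held 3 GGAAA matches beginning 227, 193 and 163 bases before the start and 1 TGACTCA match beginning 110 bases before it, whereas the upstream Rcan1 window held neither motif. Nfat5 held 2 GGAAA matches. Stim1 and Stim2 held none, and their windows were GC-rich, at 78.4% and 74.8%, with 8 and 3 matches to the GC box letters GGGCGG, which occur in 32.7% of all windows. Ppp3cb held 3 GGAAA matches, the Nfatc2 windows 3 and 1, Nfatc3 1 and 0, and Orai1 0. The sterol response letters TCACNCCAC, found in 1.05% of all windows, were in 0 of the 11. A match is a description of letters and not evidence of binding, and absence from this window says nothing of the factor.

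Each library held 36607302 to 44375792 reads on genes, a spread of 1.212-fold in depth, and the members were covered by 402 reads (Rcan1, lowest library) to 9162 reads (Nfatc3, highest library). Levels are in FPKM, fragments scaled by exon length and by the fragments on genes in the library, so that genes of different length can be compared. T cell marker genes summed to 512 to 544 FPKM. Genes of other cell types summed to low levels, given here in the order DMSO, EpA, DMSO+fato and EpA+fato. B cell genes were at 5.99 to 7.9, 5.2 to 6.23, 7.55 to 8.68 and 6.29 to 6.89 FPKM, and CD8 T cell genes at 8.71 to 9.79, 7.85 to 8.57, 8.55 to 10.2 and 6.98 to 8.6. Mast cell and basophil genes were at 0.962 to 1.08, 1.12 to 1.8, 0.986 to 1.08 and 0.749 to 1.33. Macrophage and monocyte genes were at 0.0533 to 0.153, 0.213 to 0.352, 0.216 to 0.34 and 0.378 to 0.575. Platelet genes were at 1.33 to 2.14, 2.79 to 3.79, 1.95 to 2.7 and 3.28 to 4.34, and NK cell genes at 0.196 to 0.273, 0.0969 to 0.156, 0.206 to 0.307 and 0.12 to 0.136. Dendritic cell and erythroid genes were at no more than 0.595 in any library. The part of these cells in the differences was not tested. Of the Th9 markers, Il9 was present in every library and Spi1 was near 0, at no more than 0.168 FPKM. Replicate 1 of DMSO+fato and of EpA+fato stood apart from the other 10 libraries, with the lowest FPKM sums (280099 and 279720 against 284239 to 286956) and the highest share of reads on genes of 8000 bases or more (20.74% and 20.68% against 19.41% to 20.07%), so results that depend on them are also given without them.

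All 10 members were expressed in every library and passed the filter on low values. In DMSO the order ran from Ppp3cb at 23.6 ± 0.305 FPKM (SD, n = 3) through Nfatc2 at 17.96 ± 0.274, Nfatc3 at 16.37 ± 0.0324, Nfatc1 at 10.6 ± 0.135, Stim2 at 10.03 ± 0.181, Stim1 at 8.174 ± 0.0935, Orai1 at 7.319 ± 0.951 and Nfat5 at 6.693 ± 0.287 to Rcan1 at 3.725 ± 0.147 and Ppp3ca at 2.476 ± 0.0357. Only Stim1 with Orai1 and Orai1 with Nfat5 overlapped among neighbours in this order. Ppp3cb lay above 83.7% of the genes tested and Ppp3ca above 37.1%, so calcineurin catalytic genes stood at both ends of the order. Nfatc4, the remaining calcium-regulated NFAT gene, averaged 0.0133 FPKM and was too low to test.

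Ppp3cb and Ppp3ca held the first and last place in every group. Nfatc2 exceeded Nfatc3 without overlap in DMSO and in DMSO+fato, but their libraries overlapped in EpA and in EpA+fato. Nfat5 moved from place 8 in DMSO to place 6 in EpA+fato, at 9.418 ± 0.902 FPKM, where its libraries overlapped those of Stim2 above it and Orai1 below it.

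**Figure D1:**
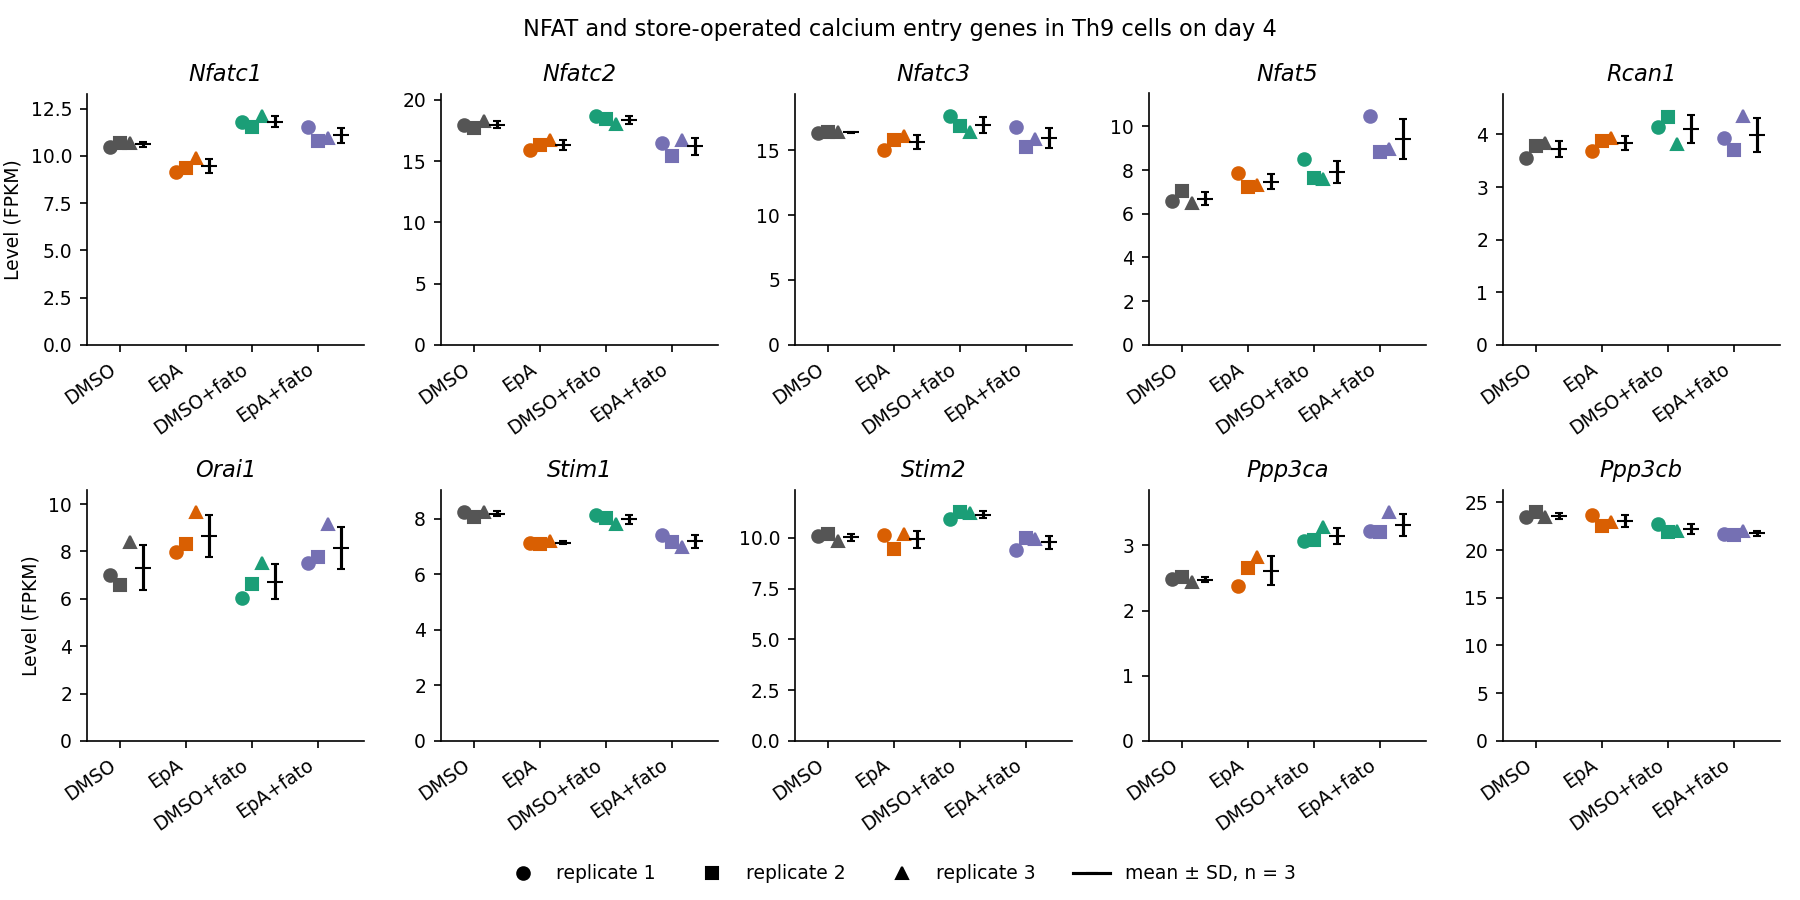
Level of each of the 10 genes in FPKM (vertical axes, from 0) in the 12 libraries, by group (symbols are single replicates and the black bars are mean ± SD of 3). Stim1 is lower in both groups with EpA, Ppp3ca is higher in both groups with fatostatin, and Nfat5 is highest in EpA+fato at 8.829 to 10.46 FPKM.

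With EpA alone, Stim1, Nfatc1 and Nfatc2 were lower than in DMSO, with log2 fold changes of -0.13 to -0.19, and no member was called higher. The largest of these was in the calcium sensor gene Stim1. All 3 calls held without each library in turn. By limma on log2(FPKM + 0.1) with Benjamini-Hochberg adjustment over 13733 genes, 3 of 10 members were called, all lower, beside 27.4% of all genes called, 14.3% higher and 13.1% lower. The members' share is thus close to the background share. Their median log2 fold change was -0.03 against 0.00 over all genes tested, where a fold change here and below is on the log2(FPKM + 0.1) scale. The difference in bulk RNA cannot tell fewer cells of a type from less RNA per cell.

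Stim1 (chr7:102267806-102437319 on GRCm38, as are the other gene positions, from GENCODE M21) measured 8.229, 8.066 and 8.227 FPKM in the DMSO libraries and 7.122, 7.107 and 7.187 in the EpA libraries. With fatostatin present it measured 8.137, 8.014 and 7.815 in DMSO+fato and 7.429, 7.157 and 6.972 in EpA+fato. Each library with EpA lay below each library without it, whatever the fatostatin. The level fell by 12.5% with EpA alone, a log2 fold change of -0.19 ± 0.032 (SE; adjusted p = 0.000898, limma), and fell by 9.95% with EpA on top of fatostatin (-0.15 ± 0.032, adjusted p = 0.00385). Those comparisons share no libraries, although all 4 groups share 1 estimate of the spread.

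Nfatc2 (chr2:168476410-168601657), the NFAT family gene with the highest level here, showed the same arrangement. Its DMSO libraries were at 17.93, 17.7 and 18.25 FPKM and its EpA libraries at 15.94, 16.35 and 16.76. In DMSO+fato the values were 18.65, 18.41 and 17.99, and in EpA+fato 16.51, 15.39 and 16.71. The 6 libraries with EpA were all lower than the 6 without. The log2 fold change was -0.13 ± 0.033 for EpA alone (adjusted p = 0.0107, limma) and -0.18 ± 0.033 with fatostatin present (adjusted p = 0.00182).

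Nfatc1 encodes the NFAT protein best known for its inducible short isoform, and its gene (chr18:80606205-80713071) responded to both agents in opposite directions. It measured 10.45, 10.67 and 10.69 FPKM in DMSO and 9.148, 9.378 and 9.894 in EpA, with no overlap. In DMSO+fato it measured 11.81, 11.52 and 12.09, above every DMSO library, and in EpA+fato 11.54, 10.78 and 10.96. The level fell by 10.6% with EpA alone (log2 fold change -0.16 ± 0.037, adjusted p = 0.00673, limma). With fatostatin in both groups the EpA log2 fold change was -0.09 ± 0.037, which did not pass (adjusted p = 0.0898, limma). Without EpA+fato replicate 1 that value became -0.12 and passed (adjusted p = 0.0411, limma), so a single library decided the call. Without both libraries of lowest FPKM sum it was also -0.12 but did not pass (adjusted p = 0.0777, limma).

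Nfatc3 (chr8:106058840-106130537) is expressed at nearly the level of Nfatc2 and did not pass in any comparison of groups, with group means of 15.63 to 16.95 FPKM. Its EpA libraries (15.02, 15.75 and 16.12) were all below its DMSO libraries (16.34, 16.41 and 16.38). The EpA log2 fold change was -0.07 with a 95% interval of -0.15 to 0.02 (adjusted p = 0.245, limma), and -0.09 with fatostatin present (adjusted p = 0.128). The latter passed without EpA+fato replicate 1 (-0.12, adjusted p = 0.0362, limma) and with voom on recovered reads (0.0468), but not without both libraries of lowest FPKM sum (-0.10, adjusted p = 0.0955). An exon stretch of 219 bases, 1.87% of the gene's exon length, is shared with Esrp2 on the opposite strand, which averaged 0.0928 FPKM.

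Summed over Nfatc1, Nfatc2 and Nfatc3, the calcineurin-regulated NFAT transcripts came to 44.9 ± 0.329 FPKM (SD, n = 3) in DMSO, 41.5 ± 1.33 in EpA, 47.1 ± 0.842 in DMSO+fato and 43.3 ± 1.72 in EpA+fato. The EpA libraries (40.1 to 42.8) lay below the DMSO libraries (44.7 to 45.3), and the DMSO+fato libraries (46.5 to 48.1) above them. EpA+fato (41.4 to 44.8) overlapped both DMSO and EpA.

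EpA added to fatostatin gave calls for 4 of 10 members, 3 lower and 1 higher, beside 29.5% of all genes (16.2% higher and 13.3% lower). Stim1, Nfatc2 and Stim2 were lower and Nfat5 was higher than in DMSO+fato. The members' median log2 fold change was -0.06 against 0.01 over all genes tested.

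Stim2 encodes the sensor that responds to smaller falls in store calcium than STIM1 does, and its levels were arranged differently. It stood at 10.08, 10.19 and 9.835 FPKM in DMSO, at 10.12, 9.465 and 10.2 in EpA, at 10.94, 11.26 and 11.23 in DMSO+fato, and at 9.416, 9.981 and 9.96 in EpA+fato. Thus the DMSO+fato libraries alone stood above the rest, and the other 3 groups overlapped. Stim2 rose by 10.9% with fatostatin alone (0.15 ± 0.036, adjusted p = 0.0166, limma) and was lower by a log2 fold change of -0.19 ± 0.036 when EpA was added to fatostatin (adjusted p = 0.0024). With EpA alone the log2 fold change was -0.02 and its 95% interval ran from -0.09 to 0.06. The rise with fatostatin was lost without DMSO replicate 3 (adjusted p = 0.0654), DMSO+fato replicate 2 (0.0562) or DMSO+fato replicate 3 (0.0543, all limma).

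The test of whether the EpA effect differed with and without fatostatin called 0 of 10 members by limma, beside 0.0437% of all genes, and 0 with voom on recovered reads. At an unadjusted p under 0.05 it gave 1 member, Stim2, beside 7.89% of all genes. The Stim2 difference was -0.17 ± 0.051 on the log2 scale with an unadjusted p of 0.00634 and an adjusted p of 0.4 (limma). For Ppp3ca the same difference was 0.00 with an interval of -0.21 to 0.21, and for Stim1 it was 0.04 with an interval of -0.06 to 0.14.

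With fatostatin alone, Nfatc1, Nfat5, Stim2 and Ppp3ca were higher than in DMSO, and Ppp3cb was lower. In all, 5 of 10 members passed, beside 14.0% of all genes (7.69% higher and 6.31% lower), and the median of their log2 fold changes was 0.09 against 0.01 over all genes. The count was 2 without DMSO replicate 1, DMSO replicate 3 or DMSO+fato replicate 2, 1 without DMSO+fato replicate 3, 3 without EpA replicate 3, 3 after scaling to TPM and 3 without the intensity trend. Fatostatin added to EpA gave 4 calls of 10, beside 16.0% of all genes (9.22% higher and 6.79% lower), with Nfatc1, Nfat5 and Ppp3ca higher and Ppp3cb lower. Those comparisons share no libraries.

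Ppp3ca (chr3:136670124-136937727), the alpha catalytic subunit of calcineurin, had the largest fatostatin difference among the members. Its values were 2.482, 2.508 and 2.438 FPKM in DMSO and 3.066, 3.087 and 3.29 in DMSO+fato. With EpA present they were 2.373, 2.648 and 2.821 without fatostatin and 3.225, 3.208 and 3.508 with it. All 6 fatostatin libraries lay above all 6 others. The level rose by 26.0% both without EpA (log2 fold change 0.33 ± 0.066, adjusted p = 0.00598, limma) and with it (0.33 ± 0.066, adjusted p = 0.00531). Both calls held without each library in turn.

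Ppp3cb (chr14:20499364-20546573), the beta catalytic subunit, had the highest level of the 10 members and moved the other way by a small amount. It was at 23.43, 23.95 and 23.42 FPKM in DMSO, 23.7, 22.48 and 22.95 in EpA, 22.78, 21.84 and 22 in DMSO+fato, and 21.72, 21.53 and 21.96 in EpA+fato. Fatostatin libraries were lower than their matched controls without overlap. Ppp3cb fell by 5.91% with fatostatin alone (-0.09 ± 0.025, adjusted p = 0.0387, limma) and fell by 5.63% with EpA present (-0.08 ± 0.025, adjusted p = 0.0439). These 2 calls lay near the threshold. The former was lost without any 1 of 8 libraries (each replicate of DMSO, DMSO+fato replicates 2 and 3, EpA replicate 3, and EpA+fato replicates 2 and 3; adjusted p 0.0503 to 0.125) and the latter without any 1 of 10, all but EpA replicate 2 and DMSO+fato replicate 1 (0.0503 to 0.156). Both were also lost after scaling to TPM (adjusted p = 0.101 and 0.122, limma). Without both libraries of lowest FPKM sum the call with EpA present was lost as well (adjusted p = 0.0775, limma).

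**Figure D2:**
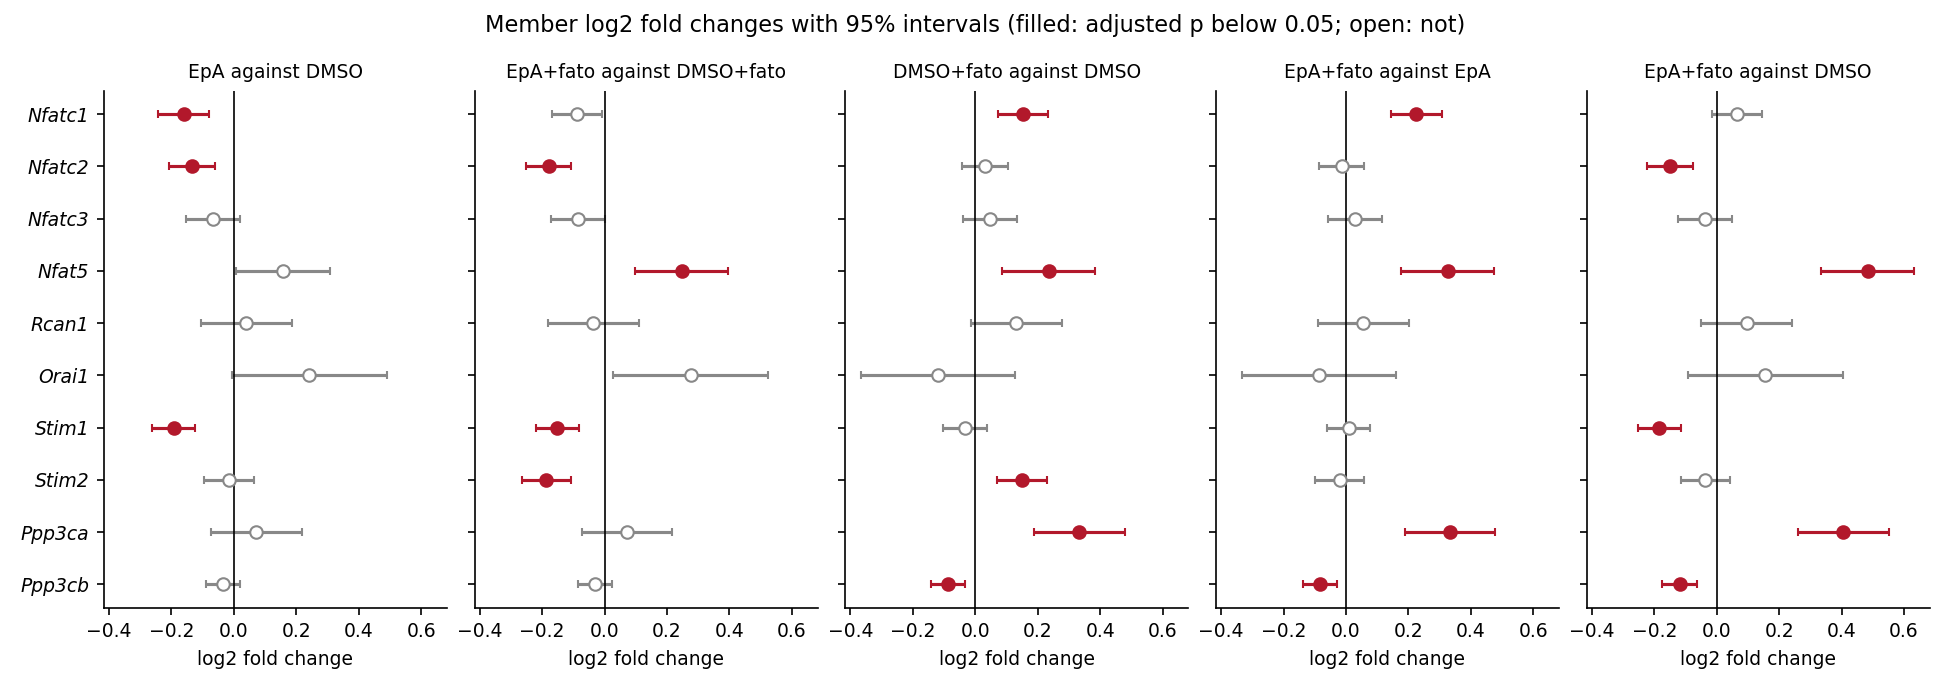
Log2 fold change on the log2(FPKM + 0.1) scale (horizontal axes) of each member in 5 comparisons, with 95% intervals from the limma fit; filled red points passed an adjusted p of 0.05 and open grey points did not. Stim1 and Nfatc2 are filled on the left of 0 in both EpA comparisons, and Ppp3ca, Nfat5 and Nfatc1 on the right of 0 in both fatostatin comparisons.

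Nfatc1 rose by 11.3% with fatostatin alone (0.15 ± 0.037, adjusted p = 0.0158, limma) and by 16.9% when it was added to EpA (0.23 ± 0.037, adjusted p = 0.00155). The first of these calls was lost without DMSO replicate 1 (adjusted p = 0.0597, limma) or DMSO+fato replicate 3 (0.0616), and the second held without each library. With both agents Nfatc1 was at 11.09 ± 0.398 FPKM (SD, n = 3), all 3 libraries above DMSO, a log2 fold change of 0.06 (adjusted p = 0.202, limma), which did not pass.

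Nfat5 (chr8:107293470-107379517) encodes the factor that turns on genes for osmolyte uptake and synthesis under hypertonic stress. Its levels were 6.568, 7.021 and 6.489 FPKM in DMSO, 7.856, 7.245 and 7.329 in EpA, 8.493, 7.635 and 7.584 in DMSO+fato and 10.46, 8.829 and 8.968 in EpA+fato. Each single agent lay above DMSO without overlap and the combination lay above all other groups. The log2 fold change was 0.24 ± 0.068 with fatostatin alone (adjusted p = 0.0398, limma), 0.33 ± 0.068 with fatostatin on EpA (adjusted p = 0.00705), 0.25 ± 0.068 with EpA on fatostatin (adjusted p = 0.0173) and 0.16 ± 0.068 with EpA alone, which did not pass (adjusted p = 0.113) but did with voom on recovered reads (adjusted p = 0.0298). With both agents against DMSO it was 0.48 ± 0.068 (adjusted p = 0.000202, limma), a 1.398-fold difference and the largest of any member in any comparison.

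Nfat5 has the longest exon sequence of the members, 18378 bases, and was highest within its group in the libraries with the most reads on long genes, DMSO+fato replicate 1 and EpA+fato replicate 1. Without both of them the log2 fold change was 0.18 with fatostatin alone (adjusted p = 0.0384, limma), 0.25 with fatostatin on EpA (adjusted p = 0.00869), 0.22 with EpA on fatostatin (adjusted p = 0.0137) and 0.41 with both agents against DMSO (adjusted p = 0.000207). All 4 values stayed past the threshold in that fit, and EpA alone, at an unchanged 0.16, passed as well (adjusted p = 0.022, limma). The call with fatostatin alone was lost without any 1 of 7 libraries (DMSO replicates 1 and 3, EpA replicates 2 and 3, and each replicate of DMSO+fato; adjusted p 0.051 to 0.143), and that with EpA on fatostatin without DMSO+fato replicate 2 (0.061), DMSO+fato replicate 3 (0.063) or EpA+fato replicate 1 (0.0543). Scaling to TPM (adjusted p = 0.0563, limma), no filter on low values (0.0656) and no intensity trend (0.0655) also ended the call with fatostatin alone, and a fit of only the groups compared ended that with EpA on fatostatin (0.0576). The EpA call was gained without EpA+fato replicate 1 (adjusted p = 0.0469, limma). The part of the read distribution in the Nfat5 differences was not tested beyond these values.

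Both agents together against DMSO gave 5 of 10 calls, beside 35.5% of all genes (19.7% higher and 15.8% lower). Nfat5 and Ppp3ca were higher, Ppp3ca by 32.4% (0.41 ± 0.066, adjusted p = 0.000597, limma). Stim1, Nfatc2 and Ppp3cb were lower, with log2 fold changes of -0.18 (adjusted p = 0.000838), -0.15 (adjusted p = 0.00455) and -0.12 (adjusted p = 0.00341). These values share the DMSO libraries with the comparisons of the single agents. All 5 calls held without each library in turn.

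Orai1 (chr5:123015074-123030456), the pore-forming channel subunit, had the largest spread. Its libraries read 6.999, 6.569 and 8.388 FPKM in DMSO, 7.974, 8.332 and 9.653 in EpA, 6.019, 6.636 and 7.508 in DMSO+fato, and 7.526, 7.766 and 9.165 in EpA+fato. Replicate 3 was the highest in all 4 groups, and the coefficient of variation was 10.22% to 12.99%, against 0.2% to 9.57% for the other members. The EpA difference was 0.24 on the log2 scale with an interval of -0.01 to 0.49 (adjusted p = 0.142, limma), and 0.28 with an interval of 0.03 to 0.52 when fatostatin was present (adjusted p = 0.0902). Orai1 was not called in any of these comparisons of groups, and an increase of up to 0.49 on the log2 scale is within the first interval. With voom on recovered reads the difference with fatostatin present passed (adjusted p = 0.0303, limma). With the replicate number as a block, Orai1 passed with EpA alone (adjusted p = 0.00302, limma) and with EpA on fatostatin (0.00132). Over all genes, however, replicate numbers did not pair the libraries. Its 2295 bases of exon share 7 bases with an antisense transcript, Gm2479.

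Rcan1 (chr16:92391953-92470867) encodes a calcineurin-binding protein whose internal start is a known NFAT target, and its summed level did not pass anywhere. It read 3.56, 3.776 and 3.839 FPKM in DMSO, 3.683, 3.88 and 3.935 in EpA, 4.142, 4.335 and 3.809 in DMSO+fato and 3.936, 3.703 and 4.343 in EpA+fato. The groups overlapped in all comparisons. With fatostatin alone the log2 fold change was 0.13 with an upper bound of 0.28 (adjusted p = 0.233, limma), and the EpA value was 0.04 with an interval of -0.11 to 0.19. The level is for the whole gene, so the windows printed above for its upstream and internal starts cannot be told apart in it.

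None of the 10 members reached 1.5-fold together with an adjusted p under 0.05 in any comparison (0 of 10 in each), beside 3.38% of all genes for EpA, 1.86% for fatostatin, 1.99% for fatostatin on EpA, 3.75% for EpA on fatostatin and 5.64% for both agents. When EpA and fatostatin were entered as 2 additive terms over all 12 libraries, a fit chosen after the values were seen, EpA called 7 members beside 41.0% of all genes and fatostatin 4 beside 25.5%. The additional EpA calls were Nfat5 (0.20, adjusted p = 0.00453, limma), Orai1 (0.26, adjusted p = 0.0163), Nfatc3 (-0.08, adjusted p = 0.0372) and Stim2 (-0.10, adjusted p = 0.0338). The same fit ended the fatostatin call of Stim2, whose log2 fold change became 0.06 (adjusted p = 0.204, limma).

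Ratios of transcripts within pairs of related members differed between groups, given here as a description with no test. Ppp3cc, the most abundant calcineurin catalytic gene, is not a member and is given below. The ratio of Ppp3cb to Ppp3ca was 9.44, 9.55 and 9.61 in DMSO and 9.99, 8.49 and 8.14 in EpA. It was 7.43, 7.08 and 6.69 in DMSO+fato and 6.74, 6.71 and 6.26 in EpA+fato, so all libraries with fatostatin were below all without. The ratio of Stim2 to Stim1 was 1.2 to 1.26 in DMSO and higher in every other library, at 1.33 to 1.42 in EpA, 1.34 to 1.44 in DMSO+fato and 1.27 to 1.43 in EpA+fato. The same rise thus came with a lower Stim1 in EpA and a higher Stim2 in DMSO+fato. Nfatc1 to Nfatc2 stood at 0.583 to 0.603 in DMSO, 0.574 to 0.59 in EpA, 0.626 to 0.672 in DMSO+fato and 0.656 to 0.7 in EpA+fato.

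**Figure D3:**
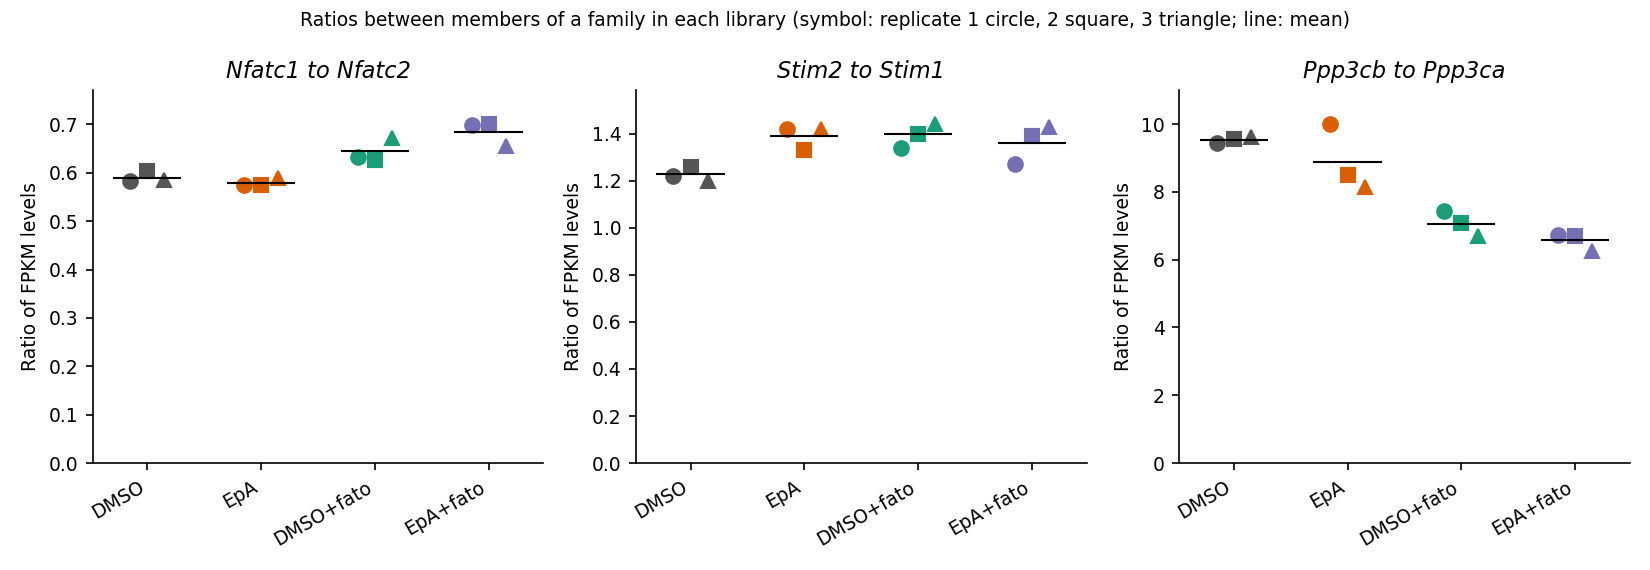
Ratio of FPKM levels within each library (vertical axes, from 0) for 3 gene pairs, by group; symbols are single replicates and lines are means. Ppp3cb to Ppp3ca is 6.26 to 7.43 in the 6 libraries with fatostatin and 8.14 to 9.99 in the 6 without, and Stim2 to Stim1 is lowest in DMSO.

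The rest of the pathway was read from 8 gene lists holding 98 genes, of which 80 passed the filter. EpA changed 44 of the 80 (55.0%, with 21 higher and 23 lower) and fatostatin 26 (32.5%, with 15 higher and 11 lower), beside 27.4% and 14.0% of all genes. These are counts only, and no test of the lists was made.

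Upstream of calcium release, 6 of the 11 tested genes of the T cell receptor and phospholipase C arm were lower with EpA and 0 were higher, and the median fold change on the log2 scale was -0.16. Cd28, the costimulatory receptor, went from 37.3 ± 0.752 to 25.72 ± 0.621 FPKM (-0.53, adjusted p = 1.35e-07, limma). Itpr1, an inositol trisphosphate receptor through which stores empty, went from 20.04 ± 0.782 to 16.13 ± 0.717 (-0.31, adjusted p = 0.000991). With fatostatin 2 genes of this arm were higher and 2 lower. The adaptor gene Lcp2 rose (0.15, adjusted p = 0.00174, limma), whereas Cd28 (-0.31, adjusted p = 1.4e-05) and the kinase gene Lck (-0.16, adjusted p = 0.000491) fell.

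Of the partners of calcium entry, 3 of 5 tested were lower with EpA and 0 higher. Orai2, a second channel subunit, was at 4.171 ± 0.127 FPKM in DMSO and 3.149 ± 0.102 in EpA (-0.39, adjusted p = 0.000587, limma). Cracr2a, which binds the ORAI and STIM complex, was at 1.698 ± 0.0543 and 1.239 ± 0.0841 (-0.43, adjusted p = 0.00224). With fatostatin, Stimate was the 1 gene of the 5 that passed, and it rose (0.20, adjusted p = 0.0116, limma).

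Among calcineurin partners and calmodulin genes, EpA gave 4 of 7 higher and 2 lower, and fatostatin 1 higher and 3 lower. Ppp3cc, the third catalytic subunit gene and the most abundant of the 3, was at 39.57 ± 0.26 FPKM in DMSO, 31.42 ± 0.871 in EpA, 35.72 ± 0.741 in DMSO+fato and 27.48 ± 0.938 in EpA+fato. It fell with EpA (-0.33, adjusted p = 8.34e-06, limma) and with fatostatin (-0.15, adjusted p = 0.00537), while Ppp3ca did not pass with EpA and rose with fatostatin. Calm2 was lower with fatostatin (-0.17, adjusted p = 7.79e-05), and Ppia, which encodes the cyclosporin receptor cyclophilin A, was higher with EpA (0.11, adjusted p = 0.00525). Calm3 passed with EpA (-0.11, adjusted p = 0.0236). The calcineurin inhibitor gene Rcan3, at 26.13 ± 0.334 FPKM the more abundant relative of Rcan1, rose with EpA (0.14, adjusted p = 0.00869), and its list had 2 of 3 higher with EpA and 1 of 3 with fatostatin, Homer3 in both (0.39 and 0.44, adjusted p = 0.0381 and 0.0397).

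NFAT kinases and nuclear transport genes gave 4 of 12 higher and 1 lower with EpA. Csnk1e, a casein kinase gene, rose from 2.387 ± 0.16 to 3.194 ± 0.196 FPKM (0.41, adjusted p = 0.000637, limma) and Csnk1a1 rose by less (0.11, adjusted p = 0.00153), while Dyrk1b was lower (-0.41, adjusted p = 0.03). Fatostatin gave 0 higher and 2 lower, the importin gene Kpnb1 (-0.14, adjusted p = 0.00129, limma) and the exportin gene Xpo1 (-0.06, adjusted p = 0.0173). Of the pumps, mitochondrial uptake genes and ion channels, 1 of 14 was higher and 3 lower with EpA, and 2 were higher and 2 lower with fatostatin. Atp2a3, one of the pumps that refill the store, fell with EpA (-0.28, adjusted p = 4.92e-06) and Atp2b4, a plasma membrane extrusion pump, rose (0.30, adjusted p = 0.000732). P2rx7, an ATP-gated channel, fell with EpA (-0.51, adjusted p = 1.13e-05) and rose with fatostatin (0.61, adjusted p = 5.76e-06). With fatostatin Atp2a3 (-0.08, adjusted p = 0.0306) and Atp2b4 (-0.20, adjusted p = 0.0174) were lower and Mcub was higher (0.31, adjusted p = 0.0273).

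Known NFAT target genes went both ways with EpA, 6 of 21 higher and 8 lower, around a median of -0.02 on the log2 scale. The cytokine gene Il9 rose from 54.61 ± 3.38 to 640.0 ± 17.5 FPKM (3.55, adjusted p = 2.18e-11, limma) and Il21 from 1.269 ± 0.108 to 3.284 ± 0.226 (1.31, adjusted p = 1.13e-06). The ubiquitin ligase gene Cblb (-0.51, adjusted p = 2.29e-06) and the checkpoint receptor gene Pdcd1 (-0.34, adjusted p = 0.000253) fell. With fatostatin 8 of 21 were higher and 1 lower, with a median of 0.16. Cblb (0.39, adjusted p = 2.94e-05, limma) and Il13 (0.33, adjusted p = 0.00737) rose and Il4 fell (-0.28, adjusted p = 0.00527). The osmotic targets of NFAT5 gave 4 of 7 higher and 0 lower with EpA, and 0 higher and 1 lower with fatostatin. Sgk1 rose with EpA (0.44, adjusted p = 8.58e-07) and fell with fatostatin (-0.28, adjusted p = 4.24e-05), and the inositol transporter gene Slc5a3 passed with EpA (0.19, adjusted p = 0.0222).

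Of the list genes named here, 4 lost the EpA call when some single library of the 12 was left out: Calm3 and Dyrk1b without DMSO replicate 1 or 3 or EpA replicate 1 or 2, Homer3 without DMSO replicate 2 or EpA replicate 1 or 3, and Slc5a3 without DMSO replicate 2 or 3 or EpA replicate 1, with adjusted p of 0.0544 to 0.135 (limma). With fatostatin 5 lost it: Xpo1 and Mcub without DMSO replicate 1 or 2 or DMSO+fato replicate 2 or 3, Atp2a3 without DMSO replicate 1 or 3 or DMSO+fato replicate 1 or 3, Atp2b4 without DMSO replicate 2 or 3 or DMSO+fato replicate 2 or 3, and Homer3 without DMSO replicate 2 or 3, any replicate of DMSO+fato, EpA replicate 1 or EpA+fato replicate 1, with adjusted p of 0.0503 to 0.123. The other named calls held without each of the 12 libraries in turn.

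**Figure D4:**
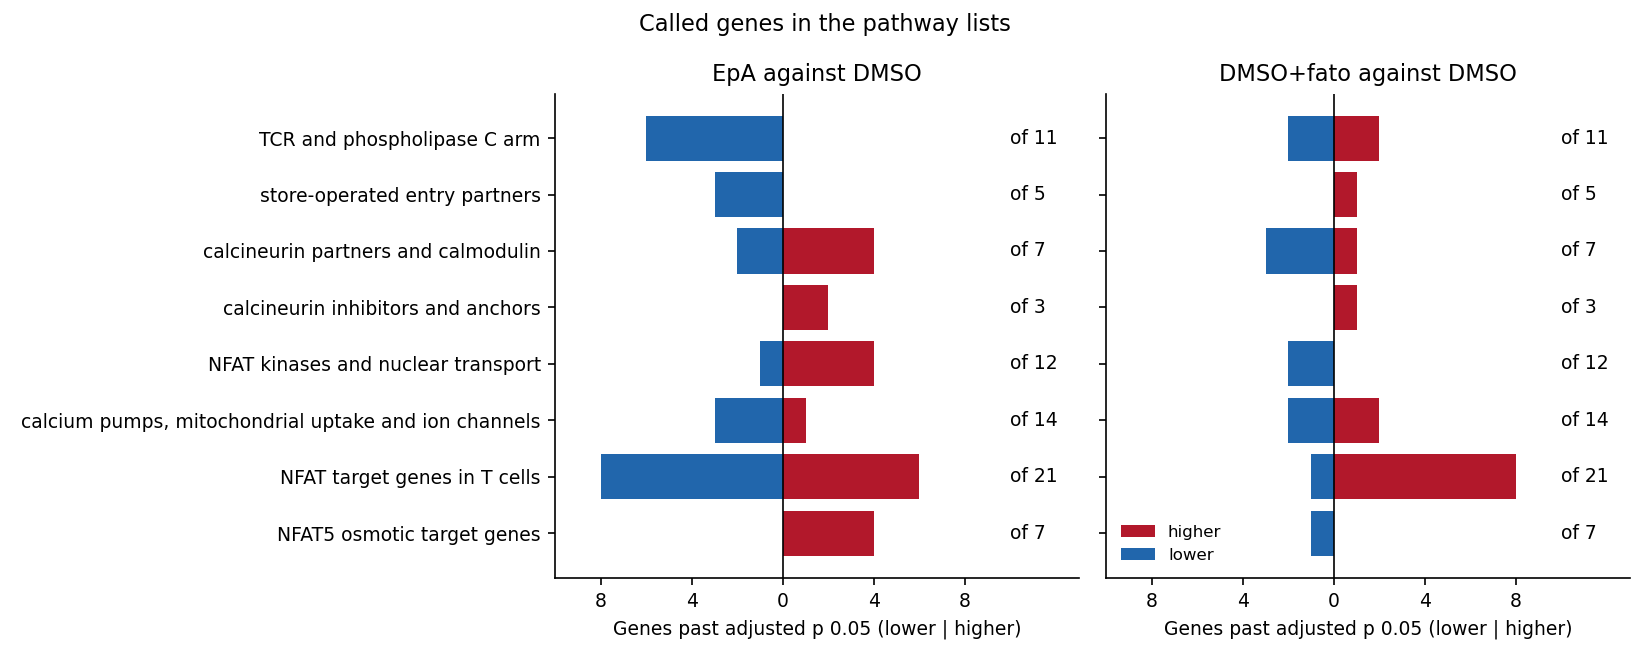
Number of genes past an adjusted p of 0.05 in each pathway list (horizontal axes, lower to the left in blue and higher to the right in red) for EpA and for fatostatin against DMSO, with the number tested at the right. The T cell receptor arm has 6 lower and 0 higher of 11 with EpA, and the NFAT targets have 8 higher and 1 lower of 21 with fatostatin.

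For each member that passed in either single-agent comparison, the genes whose levels tracked it most closely over the 12 libraries were noted by Pearson's r, as a description, since the libraries fall into 4 group means that all genes share. Stim1 was most like Usp6nl (r = 0.981) and the lymphoid factor gene Ikzf1 (0.973). Nfatc1 was most like Clint1 (0.968) and Tfdp2 (0.964), and Nfatc2 most like Zmynd11 (0.964) and Ebag9 (0.957). Ppp3ca was most like Ppm1d (0.984) and Dcxr (0.976), Ppp3cb most like Acot11 (0.942) and Ppm1h (0.940), Nfat5 most like Rock2 (0.971) and Slmap (0.971), and Stim2 most like Rpa2 (0.931) and Rnf166 (0.911).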

How the data were processed

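RNA-seq of 12 libraries in 4 groups was analysed. Per the labels and the study's methods, the authors used Trim Galore on the paired-end reads, HISAT2 for alignment (GRCm38) and featureCounts for counting, and deposited FPKM values per gene. The annotation release and strand setting are not given in the sources used here. A further 301 lines repeated an Ensembl gene with equal values, and 1 line per gene was kept. Values were tested with limma 3.58.1 (R 4.3.3) on log2(FPKM + 0.1) for 13733 genes whose mean over all libraries reached 0.1 FPKM, with 1 mean per group, an intensity trend and two-sided p-values adjusted by Benjamini-Hochberg over all tested genes. Calls are at an adjusted p under 0.05, without the study's added 1.5-fold threshold. Reads were recovered from FPKM and exon lengths (GENCODE M21, GRCm38): 98.41% to 98.57% of values came out whole within 0.05 reads, giving 36607302 to 44375792 reads per library, and limma's voom on them was an alternative.

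The members and lists were chosen with earlier results of these data known. From each list, up to 2 genes per direction with the largest called fold change and a mean of at least 1 FPKM were named, in the EpA and the fatostatin comparisons, and for each member called there the 2 genes of highest Pearson r. A few list genes that met this rule are counted but not reported by name here. The fit was also run on simulated data with the same spread setting for every gene, and no result of that run is used here.

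The alternatives were other pseudocounts, filters, scalings, trend and sample sets, a replicate block, voom and leaving out each library. Promoter windows came from RefSeq.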

Additional observations from a re-analysis of the deposited data

How the results depend on the processing

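The number of members called was 3, 5, 4, 4 and 5 for EpA, fatostatin, fatostatin on EpA, EpA on fatostatin and both agents against DMSO. With the study's 1.5-fold threshold it was 0 in each. Fatostatin called 3 after scaling to TPM and 3 without the intensity trend, and EpA called 7 as an additive term; the cause was not tested. The calls lost under both of those settings were Nfat5 (adjusted p = 0.0563 and 0.0655, limma) and Ppp3cb (0.101 and 0.0743). Nfat5 lost the fatostatin call with no filter (0.0656) and the call of EpA on fatostatin with only the groups compared (0.0576). Ppp3cb lost the fatostatin call with only the groups compared (0.0794), and that of fatostatin on EpA with no filter (0.0514), after scaling to TPM (0.122), with only the groups compared (0.0906) and without the trend (0.08). Leaving out 1 library gave 3 to 4, 1 to 5, 3 to 4, 3 to 5 and 5. Fatostatin called 1 to 3 without DMSO replicate 1 (2 calls), DMSO replicate 3 (2), EpA replicate 3 (3), DMSO+fato replicate 2 (2) or DMSO+fato replicate 3 (1). For the pathway lists, leaving out 1 library gave 37 to 45 called genes for EpA and 20 to 28 for fatostatin. With voom on recovered reads the additional calls were Nfat5 with EpA (adjusted p = 0.0298, limma) and Nfatc3 (0.0468) and Orai1 (0.0303) with EpA on fatostatin; it called 4074 genes in all for EpA and 2284 for fatostatin.

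Values that changed sign were all close to 0 and not called. For fatostatin on EpA, Stim1 became -0.0057 with median-ratio scaling, and without both libraries of the lowest FPKM sum, an alternative chosen after seeing the data, Nfatc3 became -0.0071, Stim1 -0.0149 and Stim2 0.0066. Without single libraries the ranges were -0.0365 to 0.0227 (Nfatc2), -0.0071 to 0.0616 (Nfatc3), -0.0049 to 0.1071 (Rcan1), -0.0149 to 0.0302 (Stim1) and -0.0544 to 0.0066 (Stim2) for fatostatin on EpA, -0.0353 to 0.0182 for Stim2 with EpA, and -0.0967 to 0.0154 for Rcan1 with EpA on fatostatin.

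Replicate numbers did not pair the libraries: the correlation of deviations from the group means between same-numbered libraries was -0.0472 to 0.0744, with 0 of 18 pairs above 0.1, and 5 of 12 libraries correlated best with their own number. With the replicate number as a block the counts were 4, 5, 3, 5 and 6, and 0 for the difference between EpA effects. Orai1 then passed with EpA (adjusted p = 0.00302), EpA on fatostatin (0.00132) and both agents (0.0194, limma), and Ppp3cb with fatostatin on EpA did not (0.054). In the additive fit the block ended the EpA calls of Nfatc3 (0.0519) and Stim2 (0.0534) and gave Orai1 one with fatostatin (0.0287). The comparison of only the groups concerned gives no value for the difference between EpA effects, which needs all 4.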
